A study of Mus musculus with 12 samples.

Results

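The genes described here make, degrade and sense the cyclic nucleotides cAMP and cGMP in primary mouse skin fibroblasts. They are the genes of the count table whose symbols begin with Prkar or Prkac, or with Pde, Adcy, Prkg or Gucy followed by a digit. Apart from a gene that is not reported here, 52 of the 21556 genes in the table were members. There were 25 Pde genes, 10 adenylyl cyclases (Adcy), 9 guanylyl cyclase genes (Gucy), 4 regulatory (Prkar) and 2 catalytic (Prkac) subunits of the cAMP-dependent protein kinase PKA, and 2 cGMP-dependent protein kinases (Prkg). Of the Pde genes, 20 encode catalytic subunits of cyclic nucleotide phosphodiesterases. The others are Pde4dip, which encodes a scaffold protein, Pde6d, a chaperone of prenylated proteins, Pde6g and Pde6h, inhibitory subunits of the photoreceptor enzyme, and Pde12, a mitochondrial nuclease that shares only the family's name.

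The cells came from abdominal skin of WT mice of strain C57BL/6 or of Nox4 KO mice of strain B6.129-Nox4tm1Kkr/J, in which the NADPH oxidase gene Nox4 is disrupted in every cell of the animal. Both lines descended from littermates of heterozygous crosses and were then bred on as separate WT and KO litters. All cultures were expanded over several passages and starved for 24 h, and the stimulated ones then received TGF-β2 at 10 ng/ml for 24 h. RNAseq was done on 3 libraries for each of WT control, WT with TGF-β2, Nox4 KO control and Nox4 KO with TGF-β2, and the labels do not say whether replicates came from separate animals, so p-values measure the spread between these libraries.

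cAMP is made by adenylyl cyclases when receptors coupled to the stimulatory G protein Gs are engaged, and cGMP is made by the nitric oxide receptor soluble guanylyl cyclase or by membrane guanylyl cyclases that bind natriuretic peptides. Phosphodiesterases hydrolyse one or both nucleotides, and the kinases PKA and PKG, the exchange factors EPAC and cyclic nucleotide-gated channels read them. In fibroblasts, cAMP is known as a brake on differentiation into contractile myofibroblasts, whereas TGF-β drives that differentiation.

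Total counts were between 35118344 and 43796260 per library. All 9 fibroblast markers exceeded a mean of 1 RPKM (counts scaled to the library total and to the length of the exons) in each group, while 0 of 7 keratinocyte, 0 of 7 Schwann cell and melanocyte and 0 of 6 skeletal muscle markers did. The fibroblast markers summed to between 6643 and 7337 RPKM in WT control and between 5464 and 6463 RPKM after TGF-β2. In KO the sums were between 6728 and 8035 RPKM in control and between 5830 and 6680 RPKM after TGF-β2. Macrophage markers summed to between 12.5 and 109 RPKM, led by Lyz2. Nox4 itself lay between 1.31 and 2.42 RPKM in WT control, 8.56 and 16.3 RPKM in WT with TGF-β2, 0.636 and 1.399 RPKM in KO control and 4.39 and 6.85 RPKM in KO with TGF-β2. The reads counted on Nox4 were therefore lower in KO but not absent, and in control the groups overlapped. Acta2, the smooth muscle actin that marks myofibroblasts, was between 5066 and 6016 RPKM in control and between 4366 and 7853 RPKM after TGF-β2. It showed no rise in either genotype. The log2 fold change was 0.13 ± 0.19 (SE, adjusted p = 0.664, edgeR) in WT and -0.06 ± 0.17 (adjusted p = 0.820, edgeR) in KO. The library WT with TGF-β2 replicate 2 stood apart from its group mates, with a median absolute log2 deviation of 0.307 against 0.0897 to 0.223 in the other 11 libraries. Because RNA came from whole cultures, fewer cells of a type and less RNA per cell cannot be told apart in any value below.

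The response to TGF-β2 was asked first in WT. A set of phosphodiesterases fell, namely Pde4b, Pde8b, Pde1a, Pde7b, Pde5a and Pde3a, by 2.44-fold to 5.54-fold, and with them the PKA regulatory subunit Prkar2b fell by 6.55-fold. The adenylyl cyclases Adcy4 and Adcy6 also fell, by less than 2-fold. The soluble guanylyl cyclase subunit Gucy1b1 and the adenylyl cyclase Adcy7 rose by 4.22-fold and 3.15-fold, and Prkg2 and Pde12 rose by less than 2-fold. Of the 52 members, 33 had a mean of at least 1 RPKM in control or stimulated cells and were tested. A member is said to have passed, risen or fallen where edgeR's quasi-likelihood test gave a Benjamini-Hochberg adjusted p under 0.05 over all genes tested in that comparison. By this limit 4 members rose and 9 fell, which is 39.4% of those tested, while 22.6% of all 10743 tested genes passed (10.4% higher, 12.2% lower). With a fold change of at least 2 required as well, 2 members rose and 7 fell, beside 7.72% of all genes in either direction (2.62% and 5.09%). Control and stimulated libraries did not overlap for 18 members (5 higher, 13 lower), beside 45.2% of all genes (20.3% higher, 24.9% lower), and 15 members had an unadjusted p under 0.05, beside 37.7%. The median log2 fold change was -0.28 over the 33 members and -0.003 over all tested genes. Without WT with TGF-β2 replicate 2, 4 members rose and 12 fell, while 3399 of 10750 genes passed. Without WT with TGF-β2 replicate 1 or WT control replicate 2, 2 members rose, while 1232 of 10751 or 1376 of 10769 genes passed.

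In Nox4 KO cells the same question gave a similar set of genes. Prkar2b, Pde8b, Pde4b, Pde1a, Pde7b and Pde3a fell at least 2-fold, Pde5a, Pde6d, Prkaca and Adcy6 fell by less, Gucy1b1 and Prkg2 rose at least 2-fold, and Prkar2a and Pde12 rose by less. Of 32 members tested, 4 rose and 10 fell, which is 43.8%, while 30% of 10809 tested genes passed (15.1% higher, 14.9% lower). With a fold of at least 2 required, 2 members rose and 6 fell, beside 6.8% of all genes in either direction (2.22% and 4.58%). Control and stimulated libraries did not overlap for 16 members (4 higher, 12 lower), beside 48.5% of all genes (17% higher, 31.5% lower). The median log2 fold change was -0.11 over the members and -0.01 over all genes. Same-numbered KO libraries deviated together, and with the replicate number as a block 11 members rose and 12 fell, beside 5842 of all 10809 genes that passed in that fit (2729 of them higher). Without KO with TGF-β2 replicate 2, 1 member rose and 4 fell, while 1134 of 10816 genes passed. Without KO control replicate 1 or replicate 2, 2 members rose, while 1616 of 10786 or 1783 of 10838 genes passed. Among all genes that passed, 50.5% were higher, a share that became 38.2% under upper-quartile scaling.

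In both genotypes 3 members rose (Gucy1b1, Prkg2 and Pde12) and 8 fell, while 2 (Adcy4 and Adcy7) passed in WT alone and 3 (Pde6d, Prkaca and Prkar2a) in KO alone. Of the members tested, 17 passed in neither, one of which (Adcy9) was tested in WT alone, and 19 members were tested in neither. The calls that held whichever single library was left out were Gucy1b1, Pde3a, Pde4b, Pde8b and Prkar2b in both genotypes, and Pde1a, Pde5a and Pde7b in WT.

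**Figure D1:**
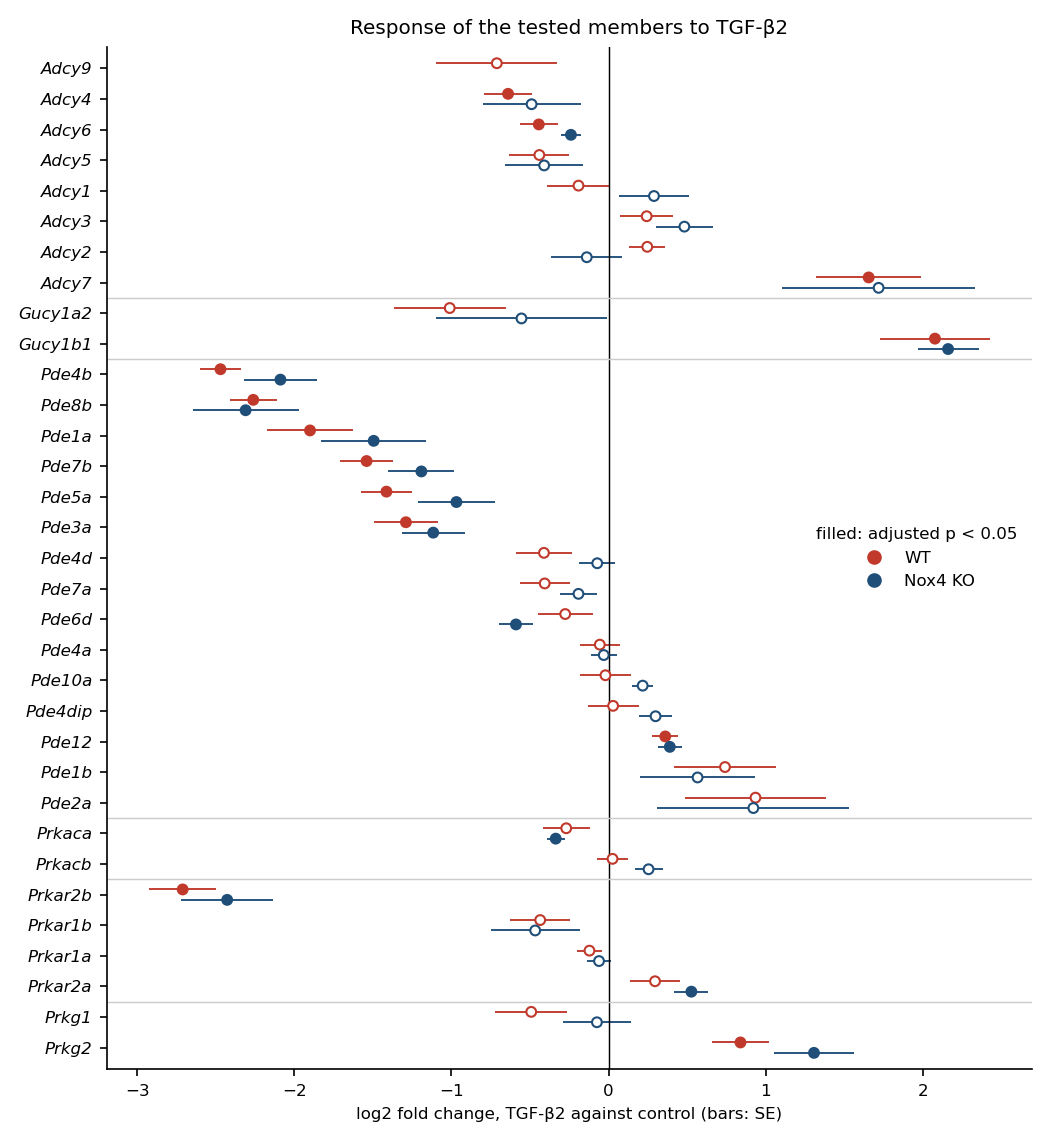
log2 fold change of TGF-β2 against control (x axis, bars are standard errors) of the members tested in WT, in WT (red) and Nox4 KO (blue), grouped by family and ordered by the WT value, with filled points for an adjusted p under 0.05. The 6 falling phosphodiesterases and Prkar2b lie left of 0 and Gucy1b1, Adcy7 and Prkg2 right of 0 in both genotypes, and Adcy7 in KO is an open point.

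The promoters of the members that led these changes are shown first, because several of the genes moved together and cAMP acts on transcription through CREB. Those printed belong to the members that passed in both genotypes with at least a 2-fold change in both and had the largest falls (Prkar2b and Pde4b) and the largest rise (Gucy1b1) in WT. Each runs 5′ to 3′ along the gene from 250 bases before to 50 bases after a RefSeq start, on GRCm38.p6. Capitals mark CGTCA, the opposite-strand form of the half-site TGACG to which CREB proteins bind. Prkar2b has 2 starts in the table, and the one shown is at chr12:32061228-32061527 on the minus strand. Pde4b has 4, of which the one shown, at chr4:102421305-102421604 on the plus strand, is the only one with the half-site. Gucy1b1 has 1, at chr3:82074662-82074961 on the minus strand.
Prkar2b: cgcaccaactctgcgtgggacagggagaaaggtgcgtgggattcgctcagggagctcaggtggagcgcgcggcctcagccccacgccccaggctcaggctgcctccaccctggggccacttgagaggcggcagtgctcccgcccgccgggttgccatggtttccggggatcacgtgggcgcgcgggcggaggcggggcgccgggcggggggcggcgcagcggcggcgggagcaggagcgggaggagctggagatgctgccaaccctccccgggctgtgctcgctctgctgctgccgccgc
Pde4b: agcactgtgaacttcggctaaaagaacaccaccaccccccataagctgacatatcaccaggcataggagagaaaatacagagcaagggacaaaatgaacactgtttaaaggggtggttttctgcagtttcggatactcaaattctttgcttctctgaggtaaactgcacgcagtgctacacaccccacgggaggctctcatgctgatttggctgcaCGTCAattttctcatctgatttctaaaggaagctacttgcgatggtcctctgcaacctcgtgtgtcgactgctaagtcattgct
Gucy1b1: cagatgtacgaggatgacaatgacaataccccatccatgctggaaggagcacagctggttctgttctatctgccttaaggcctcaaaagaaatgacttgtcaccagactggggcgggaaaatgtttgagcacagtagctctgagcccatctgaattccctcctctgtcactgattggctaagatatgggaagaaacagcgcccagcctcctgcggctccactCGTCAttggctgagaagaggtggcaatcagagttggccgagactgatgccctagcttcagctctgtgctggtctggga
The half-site began at position -28 from the start in Gucy1b1 and at -34 in Pde4b, and neither Prkar2b promoter held it. The letters of 4 motifs were searched on both strands in all 32851 promoters of the RefSeq table, which covers 41 of the 52 members. TGACG was found in 20.8% of all promoters, the palindrome TGACGTCA, which contains it, in 1.79%, the SMAD-binding letters CAGAC in 49.6% and the AP-1 letters TGANTCA in 7.81%. Counted by gene over all its starts, TGACG was found in 16 of 41 members (39.0%) and in 23.0% of 27025 genes, TGACGTCA in 1 member, Prkar1a, and CAGAC in 28 members and 53.2% of genes. Of the members that fell in at least 1 genotype 9 were in the table, and 4 held TGACG and 6 CAGAC, and of 16 members that did not pass 7 held TGACG and 9 CAGAC. Of those that rose 4 were in the table, and 3 held TGACG and 2 CAGAC. These are matches of letters in short windows and not measured binding, and the counts of reads do not separate the starts of a gene.

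Among the phosphodiesterases, Pde4b, a cAMP-specific enzyme of the rolipram-sensitive PDE4 family, stood at 5.18, 6.02 and 5.97 RPKM in the 3 WT control libraries and at 0.881, 0.975 and 1.16 RPKM after TGF-β2. In KO it stood at 6.66, 5.18 and 4.28 RPKM in control and at 1.36, 1.31 and 0.907 RPKM after TGF-β2. All stimulated libraries lay far below all control libraries. The log2 fold change was -2.47 ± 0.13 (SE, adjusted p = 0.00032, edgeR) in WT and -2.09 ± 0.23 (adjusted p = 0.0039, edgeR) in KO. No other gene of the family passed. Pde4a, the phosphodiesterase of highest level, had log2 fold changes of -0.06 ± 0.13 in WT and -0.03 ± 0.08 in KO. Pde4d had -0.41 ± 0.18 and -0.07 ± 0.12. Pde4c had at most 8 counts in any library and was not tested.

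Pde8b, a cAMP-specific enzyme of high affinity that resists the general inhibitor IBMX, was the second phosphodiesterase by level in control. It gave 13.4, 13.6 and 11.4 RPKM in WT control and 2.64, 2.99 and 2.19 RPKM after TGF-β2. In KO it gave 13.5, 14.4 and 7.28 RPKM in control and 2.64, 2.51 and 1.55 RPKM after TGF-β2. KO control replicate 3 was low in its group, and even it was well above every stimulated library. The log2 fold change was -2.26 ± 0.15 (adjusted p = 0.00046, edgeR) in WT and -2.31 ± 0.34 (adjusted p = 0.0070, edgeR) in KO. Pde7b, likewise specific for cAMP, gave 5.32, 6.33 and 7.70 RPKM in WT control and 2.21, 1.80 and 2.44 RPKM after TGF-β2. In KO it gave 6.35, 6.53 and 9.44 RPKM in control and 2.60, 2.71 and 3.88 RPKM after TGF-β2. Control and stimulated libraries were apart in both genotypes, and replicate 3 was the highest of each of the 4 groups. The log2 fold change was -1.54 ± 0.17 (adjusted p = 0.0020, edgeR) in WT and -1.19 ± 0.21 (adjusted p = 0.0113, edgeR) in KO, where it became -1.11 (adjusted p = 0.0544) without KO with TGF-β2 replicate 2. Its paralogue Pde7a had -0.41 ± 0.16 in WT and -0.19 ± 0.12 in KO and did not pass, although its groups did not overlap in either genotype.

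Pde3a, a cGMP-inhibited enzyme that hydrolyses cAMP, was nearly constant in WT control at 3.08, 3.07 and 3.03 RPKM and lay at 1.57, 0.918 and 1.16 RPKM after TGF-β2. In KO the values were 2.52, 3.15 and 2.44 RPKM in control and 1.17, 1.44 and 0.912 RPKM after TGF-β2. No stimulated library reached a control library, with log2 fold changes of -1.29 ± 0.20 (adjusted p = 0.0066, edgeR) in WT and -1.12 ± 0.20 (adjusted p = 0.0116, edgeR) in KO. Its paralogue Pde3b, known from insulin action in adipocytes, had group means of 0.814 and 0.263 RPKM in WT and 0.606 and 0.331 RPKM in KO, under the limit of 1 RPKM, and was not tested. It had 186, 162 and 262 counts in WT control and 90, 39 and 72 after TGF-β2, and 162, 169 and 133 counts in KO control and 144, 84 and 53 after TGF-β2. In RPKM the groups were apart in both genotypes, while the KO counts, not scaled for depth, overlapped. Under the less strict count filter filterByExpr, which let it be tested, Pde3b had a log2 fold change of -1.55 ± 0.31 (adjusted p = 0.0145, edgeR) in WT and -0.75 ± 0.36 (adjusted p = 0.165, edgeR) in KO.

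The calmodulin-stimulated and cGMP-directed enzymes did not all move the same way. Pde1a, which hydrolyses both nucleotides when calcium and calmodulin bind, gave 1.43, 1.34 and 2.52 RPKM in WT control and 0.387, 0.465 and 0.520 RPKM after TGF-β2. KO libraries gave 1.30, 1.013 and 2.31 RPKM in control and 0.525, 0.396 and 0.615 RPKM after TGF-β2. The groups were apart in both genotypes, with log2 fold changes of -1.90 ± 0.27 (adjusted p = 0.0048, edgeR) in WT and -1.49 ± 0.34 (adjusted p = 0.0220, edgeR) in KO. The KO call was lost without KO control replicate 1 (adjusted p = 0.0505), KO with TGF-β2 replicate 1 (0.0650) or KO with TGF-β2 replicate 2 (0.0862). Pde1b, of the same family, had log2 fold changes of 0.74 ± 0.32 (adjusted p = 0.145, edgeR) in WT and 0.57 ± 0.37 (adjusted p = 0.280, edgeR) in KO, where the replicate block gave 0.61 (adjusted p = 0.0173).

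Pde5a, the cGMP-specific enzyme that sildenafil inhibits, gave 1.88, 1.81 and 1.43 RPKM in WT control and 0.569, 0.651 and 0.656 RPKM after TGF-β2. KO libraries gave 1.81, 1.45 and 1.43 RPKM in control and 0.726, 0.532 and 1.00 RPKM after TGF-β2. The groups were again apart, and the stimulated KO library nearest to control was replicate 3. Its log2 fold change was -1.41 ± 0.16 (adjusted p = 0.0023, edgeR) in WT and -0.97 ± 0.24 (adjusted p = 0.0301, edgeR) in KO, and the KO call was lost without replicate 1 or replicate 2 of either KO group, with adjusted p between 0.0714 and 0.0916. Pde2a, which cGMP stimulates and which hydrolyses both nucleotides, gave 8.32, 4.18 and 2.65 RPKM in WT control and 12.7, 8.81 and 6.73 RPKM after TGF-β2. KO libraries gave 3.59, 6.12 and 1.37 RPKM in control and 6.01, 10.4 and 3.54 RPKM after TGF-β2. Each stimulated library was above the control library of its number, but the groups overlapped in both genotypes. It did not pass, with log2 fold changes of 0.94 ± 0.45 (adjusted p = 0.176, edgeR) in WT and 0.92 ± 0.61 (adjusted p = 0.289, edgeR) in KO, and with the replicate block the KO value was 1.008 (adjusted p = 0.0030). Pde10a, a dual-specificity enzyme best known in the striatum, was between 2.88 and 4.51 RPKM in all libraries and did not pass, and with the replicate block its KO log2 fold change was 0.22 (adjusted p = 0.0379).

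**Figure D2:**
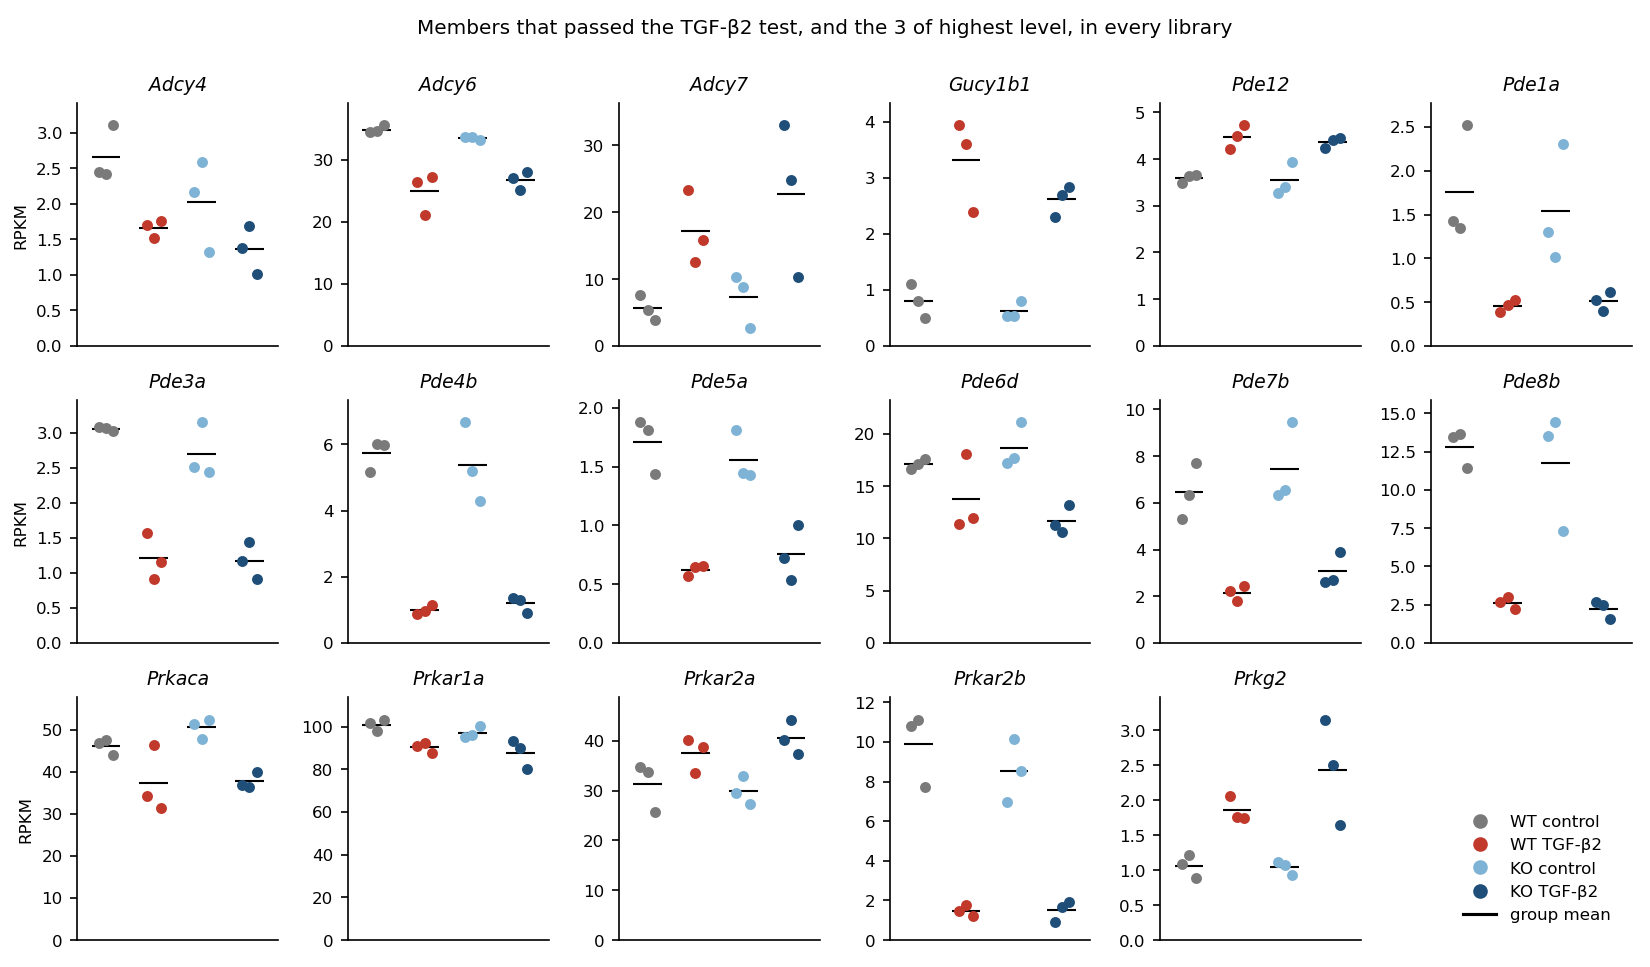
RPKM (y axis, from 0) in each of the 3 libraries per group (points, replicates 1 to 3 from left to right) with the group mean (line), for the members that passed in WT or KO after TGF-β2 and for the 3 members of highest mean level. For Pde4b, Pde8b and Prkar2b every stimulated library lies below every control library, and for Gucy1b1 every one lies above.

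Of the Pde genes without phosphodiesterase catalysis of cyclic nucleotides, Pde6d gave 16.6, 17.1 and 17.6 RPKM in WT control and 11.3, 18.1 and 12.0 RPKM after TGF-β2. The KO values were 17.2, 17.7 and 21.1 RPKM in control and 11.3, 10.6 and 13.2 RPKM after TGF-β2. The KO groups were apart, and in WT the library that stood apart, replicate 2 with TGF-β2, was the highest of all 6. Its log2 fold change was -0.59 ± 0.11 (adjusted p = 0.0135, edgeR) in KO, where it became -0.53 (adjusted p = 0.0580) without KO with TGF-β2 replicate 2. In WT it was -0.28 ± 0.17 (adjusted p = 0.292, edgeR), and -0.50 (adjusted p = 0.0057) without the library that stood apart. Pde12 gave 3.48, 3.63 and 3.65 RPKM in WT control and 4.22, 4.502 and 4.72 RPKM after TGF-β2. The KO values were 3.27, 3.41 and 3.95 RPKM in control and 4.24, 4.404 and 4.45 RPKM after TGF-β2. The groups did not overlap, with log2 fold changes of 0.36 ± 0.08 (adjusted p = 0.0220, edgeR) in WT and 0.39 ± 0.08 (adjusted p = 0.0151, edgeR) in KO. Leaving out 1 library moved the adjusted p above 0.05 in 5 of 6 cases in WT (all but WT with TGF-β2 replicate 2, up to 0.108) and in KO without KO control replicate 1 (0.0501), KO control replicate 2 (0.0543) or KO with TGF-β2 replicate 2 (0.0669). Pde12 overlaps Arf4 on the opposite strand, and whether counting used the strand is not stated, so reads of the pair may be mixed. Pde4dip was between 12.1 and 20.95 RPKM and did not pass, and with the replicate block its KO log2 fold change was 0.29 (adjusted p = 0.0099).

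The summed level of the 20 catalytic phosphodiesterases was 62.9, 63.2 and 59.1 RPKM in WT control and 44.8, 36.8 and 38.8 RPKM after TGF-β2. In KO it was 60.5, 63.4 and 51.6 RPKM in control and 38.1, 43.1 and 35.1 RPKM after TGF-β2. The sum was thus lower in each stimulated library than in any control library of its genotype, and the make-up differed as well. Pde8b held 20.7% ± 1.25 (SD, n = 3) of the sum in WT control and 6.55% ± 1.35 after TGF-β2. Pde4b held 9.29% ± 0.956 in WT control and 2.53% ± 0.518 after TGF-β2, and in KO 9.16% ± 1.61 and 3.06% ± 0.495. Pde4a, whose own level moved little, held 21.2% ± 2.32 in WT control and 30.7% ± 2.54 after TGF-β2. Pde2a held 8.11% ± 4.56 in WT control and 23.2% ± 5.59 after TGF-β2, and in KO 6.08% ± 3.50 and 16.6% ± 7.003. These sums and shares are given as a description without a test.

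**Figure D3:**
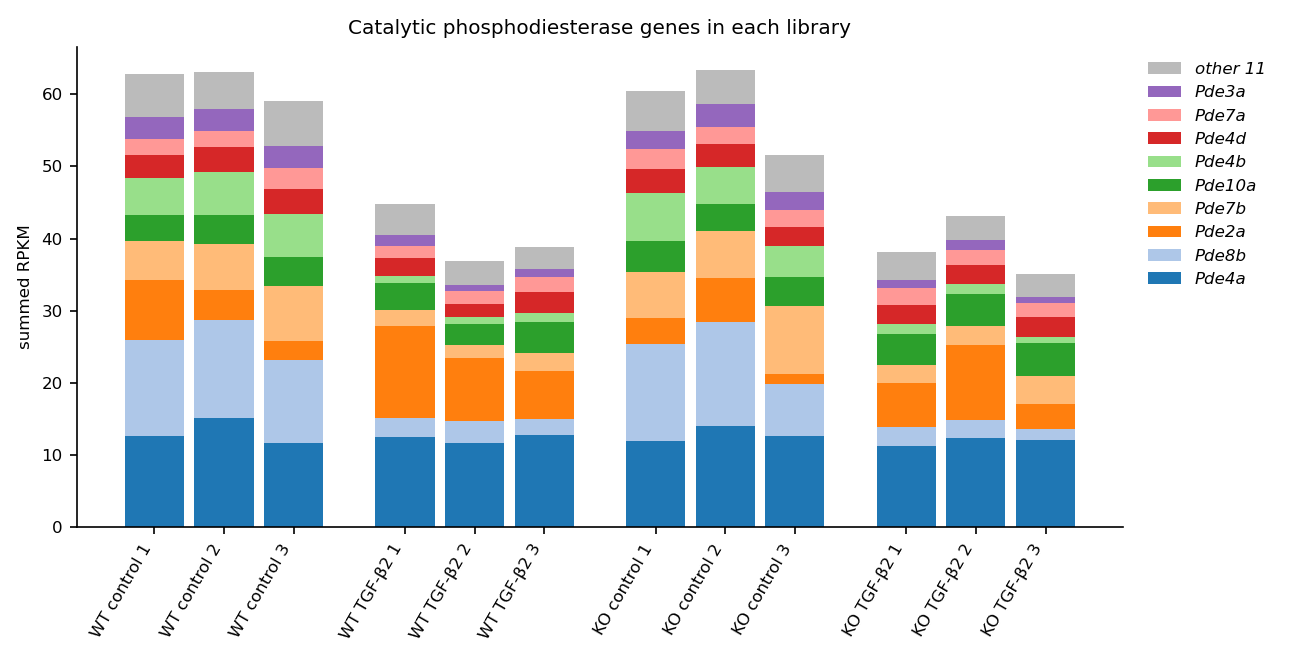
Summed RPKM (y axis, from 0) of the 20 catalytic phosphodiesterase genes in each of the 12 libraries, with the 9 of highest mean level in colour and the other 11 in grey. The bars are shorter after TGF-β2 in both genotypes, from between 59.1 and 63.2 to between 36.8 and 44.8 RPKM in WT, and the Pde8b segment falls from 20.7% to 6.55% of the WT bar on average.

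Of the adenylyl cyclases, Adcy7, an isoform also abundant in leukocytes, gave 7.68, 5.31 and 3.87 RPKM in WT control and 23.3, 12.5 and 15.9 RPKM after TGF-β2. The KO values were 10.4, 8.77 and 2.72 RPKM in control and 33.0, 24.8 and 10.3 RPKM after TGF-β2. The WT groups were apart, and in KO the lowest stimulated value lay just under the highest control value while each stimulated library was well above the control library of its number. Its log2 fold change was 1.66 ± 0.33 (adjusted p = 0.0149, edgeR) in WT, and 1.64 (adjusted p = 0.0589) without WT control replicate 2. In KO it was 1.72 ± 0.61 (adjusted p = 0.0801, edgeR), and with the replicate block 1.77 (adjusted p = 0.00022). DESeq2 gave 1.72 in KO (adjusted p = 0.0428), and without KO with TGF-β2 replicate 3 edgeR gave 2.07 (adjusted p = 0.0406). The summed macrophage markers were between 24.0 and 109 RPKM in WT control and between 19.7 and 74.4 RPKM in WT with TGF-β2, and between 19.0 and 83.5 RPKM and between 12.5 and 60.3 RPKM in KO. All 7 of these markers had counts in each group, and their summed ranges overlapped between control and stimulated libraries in both genotypes. Lyz2, Cd68, Adgre1 and Csf1r were lower in each stimulated library than in the control library of its number. Ptprc was higher in each, and Cd14 and Itgam went both ways. The part of such cells in the result was not tested. Adcy7 was the second adenylyl cyclase by level after stimulation, with 26.7% ± 4.79 of the summed membrane cyclases in WT and 30.2% ± 11.3 in KO, against 8.78% ± 2.72 and 11.3% ± 5.71 in control.

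Adcy6, a calcium-inhibited isoform, was the adenylyl cyclase of highest level. It gave 34.5, 34.7 and 35.6 RPKM in WT control and 26.5, 21.1 and 27.2 RPKM after TGF-β2. In KO it gave 33.7, 33.6 and 33.2 RPKM in control and 27.1, 25.2 and 28.1 RPKM after TGF-β2. The control libraries were close together and above all stimulated libraries, with log2 fold changes of -0.44 ± 0.12 (adjusted p = 0.0426, edgeR) in WT and -0.24 ± 0.06 (adjusted p = 0.0315, edgeR) in KO. These small changes lost their call when 1 library was left out in 4 of 6 cases in each genotype (any WT control or WT with TGF-β2 replicate 1, adjusted p up to 0.145, and replicate 1 or 2 of either KO group, up to 0.117). In the fit over all 12 libraries the KO value was -0.20 (adjusted p = 0.177). Without the filter on low levels the adjusted p was 0.0543 in WT and 0.0664 in KO, and with TMM on library totals it was 0.0573 in WT. Adcy4 gave 2.44, 2.43 and 3.11 RPKM in WT control and 1.70, 1.51 and 1.75 RPKM after TGF-β2. In KO it gave 2.16, 2.59 and 1.32 RPKM in control and 1.38, 1.69 and 1.014 RPKM after TGF-β2. The WT groups were apart and the KO groups overlapped. Its log2 fold change was -0.64 ± 0.15 (adjusted p = 0.0255, edgeR) in WT, where any WT control library or WT with TGF-β2 replicate 1 left out took the adjusted p to between 0.0707 and 0.0955, and the fit over all 12 libraries gave 0.0760. In KO it was -0.49 ± 0.31 (adjusted p = 0.272, edgeR), and with the replicate block -0.47 (adjusted p = 0.0142).

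The remaining cyclases gave no call. Adcy1, Adcy2, Adcy3 and Adcy5 had WT log2 fold changes between -0.44 and 0.25 and KO values between -0.41 and 0.48, and Adcy9, tested in WT alone, had -0.71 ± 0.38. With the replicate block Adcy3 had 0.47 in KO (adjusted p = 0.0019), and its reads may be mixed with those of Cenpo on the opposite strand. Adcy8 had at most 78 counts and the soluble cyclase Adcy10 at most 1 count in any library. The summed membrane cyclases were 63.6 ± 2.12 RPKM (SD, n = 3) in WT control and 63.7 ± 10.6 after TGF-β2, and 62.5 ± 5.35 and 72.0 ± 12.7 in KO. The KO groups overlapped, although each stimulated KO library was above the control library of its number (67.0 and 84.6, 63.9 and 72.4, 56.6 and 59.2 RPKM), and these sums were not tested.

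On the cGMP side, soluble guanylyl cyclase is a dimer of an alpha and a beta subunit that binds nitric oxide through a haem in the beta subunit. Gucy1b1, the beta subunit, gave 1.11, 0.805 and 0.492 RPKM in WT control and 3.93, 3.598 and 2.39 RPKM after TGF-β2. KO libraries gave 0.534, 0.535 and 0.793 RPKM in control and 2.30, 2.69 and 2.84 RPKM after TGF-β2. Every stimulated library was more than any control library of either genotype. On the log2 scale the change was 2.08 ± 0.35 (adjusted p = 0.0081, edgeR) in WT and 2.16 ± 0.19 (adjusted p = 0.0026, edgeR) in KO. The alpha subunit present in these cells was Gucy1a2, with 5.98, 9.17 and 10.5 RPKM in WT control and 3.56, 2.52 and 6.24 RPKM after TGF-β2. In KO it had 3.72, 4.93 and 14.4 RPKM in control and 3.66, 3.88 and 7.14 RPKM after TGF-β2. The groups overlapped in both genotypes, and it did not pass, with -1.01 ± 0.36 (adjusted p = 0.0858, edgeR) in WT and -0.55 ± 0.55 (adjusted p = 0.469, edgeR) in KO. DESeq2 gave -1.01 in WT with an adjusted p of 0.0249. The other alpha subunit, Gucy1a1, had between 2 and 30 counts per library and was not tested. Gucy1b1 made up 9.26% ± 5.58 (SD, n = 3) of the summed soluble cyclase RPKM in WT control and 46.0% ± 16.2 after TGF-β2, and 8.94% ± 3.47 and 35.6% ± 6.33 in KO.

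Markers of pericytes and vascular smooth muscle, cells that use soluble guanylyl cyclase, were higher after TGF-β2 in their summed level, as was Gucy1b1, but the single markers went both ways. The 8 markers summed to between 95.5 and 141 RPKM in WT control and between 148 and 159 RPKM after TGF-β2, and to between 123 and 133 RPKM and between 154 and 200 RPKM in KO. Of the 8, 5 had a mean of at least 1 RPKM in each group. Among these, Cspg4 and Mcam were higher in each stimulated library than in the control library of its number, while Myh11, Notch3 and Des were lower in each. Rgs5 was between 0.140 and 0.475 RPKM throughout, and Kcnj8 and Abcc9 were at or below 0.328 RPKM. The part of these cells in the result was not tested. Of the 6 endothelial markers 1, Kdr, had a mean of at least 1 RPKM in each group (1.48 to 4.62 RPKM per library), Tek reached 1.04 RPKM, and Pecam1, Cdh5, Tie1 and Vwf were at or below 0.133 RPKM in every library. The membrane guanylyl cyclases (Gucy2c, Gucy2d, Gucy2e, Gucy2f and Gucy2g) had at most 24 counts in any library and summed to between 0.0145 and 0.0903 RPKM.

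The cGMP-dependent kinases differed from each other. Prkg2, the membrane-anchored PKG II, gave 1.09, 1.22 and 0.881 RPKM in WT control and 2.06, 1.75 and 1.74 RPKM after TGF-β2. KO libraries gave 1.12, 1.07 and 0.930 RPKM in control and 3.15, 2.50 and 1.64 RPKM after TGF-β2. The groups did not overlap in either genotype. On the log2 scale the change was 0.84 ± 0.18 (adjusted p = 0.0194, edgeR) in WT, and without WT control replicate 1 or WT with TGF-β2 replicate 1 the adjusted p was 0.0685 or 0.0805. In KO it was 1.31 ± 0.25 (adjusted p = 0.0145, edgeR), and without KO control replicate 2 or KO with TGF-β2 replicate 2 the adjusted p was 0.0510 or 0.0590. Prkg1, the cytosolic PKG I of smooth muscle, had the higher level of the pair, between 4.83 and 10.7 RPKM, and did not pass, with -0.49 ± 0.23 (adjusted p = 0.166, edgeR) in WT and -0.07 ± 0.22 (adjusted p = 0.817, edgeR) in KO. Its reads may include some of Cstf2t, which lies inside it on the opposite strand.

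PKA is a tetramer in which regulatory subunits hold the catalytic subunits inactive until cAMP binds. Prkar2b, the RIIβ subunit known from fat and brain, gave 10.8, 11.1 and 7.73 RPKM in WT control and 1.46, 1.76 and 1.20 RPKM after TGF-β2. The KO values were 6.95, 10.2 and 8.53 RPKM in control and 0.919, 1.68 and 1.90 RPKM after TGF-β2. The highest stimulated value was well under the lowest control value in both genotypes. On the log2 scale the change was -2.71 ± 0.21 (adjusted p = 0.00075, edgeR) in WT, the largest fall of any member tested there, and -2.43 ± 0.29 (adjusted p = 0.0045, edgeR) in KO. The summed adipocyte markers moved the same way, from between 3.99 and 7.86 to between 1.21 and 2.43 RPKM in WT and from between 1.59 and 6.10 to between 0.808 and 1.37 RPKM in KO. Of the 6, Fabp4 and Pparg made nearly all of the sum, Adipoq, Plin1, Cidec and Lep were at or below 0.233 RPKM in every library, and the part of such cells in the result was not tested.

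The other regulatory subunits changed less. Prkar1a, the ubiquitous RIα subunit, had the highest level of all members and gave 102, 97.9 and 103 RPKM in WT control and 90.9, 92.4 and 87.5 RPKM after TGF-β2. The KO values were 95.0, 96.2 and 100.3 RPKM in control and 93.3, 90.0 and 79.9 RPKM after TGF-β2. The stimulated libraries lay slightly below control without overlap in RPKM, which scales by library total. Prkar1a did not pass the test, which scales by TMM, with -0.12 ± 0.08 (adjusted p = 0.321, edgeR) in WT and -0.06 ± 0.08 (adjusted p = 0.585, edgeR) in KO. Prkar2a, the RIIα subunit, gave 34.7, 33.7 and 25.7 RPKM in WT control and 40.1, 33.6 and 38.8 RPKM after TGF-β2. In KO the RPKM were 29.5, 32.9 and 27.4 RPKM in control and 40.2, 44.3 and 37.4 RPKM after TGF-β2. The KO groups were apart and the WT groups overlapped. It rose in KO by 0.53 ± 0.11 on the log2 scale (adjusted p = 0.0170, edgeR), a call lost without KO control replicate 1 (adjusted p = 0.0594), KO with TGF-β2 replicate 1 (0.0501) or KO with TGF-β2 replicate 2 (0.0663), and in WT the value was 0.30 ± 0.16 (adjusted p = 0.219, edgeR). Prkar1b had -0.43 ± 0.19 (adjusted p = 0.149, edgeR) in WT and -0.47 ± 0.28 (adjusted p = 0.2501, edgeR) in KO, and -0.50 (adjusted p = 0.0071) in KO with the replicate block.

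Prkaca, the main catalytic subunit, gave 46.9, 47.5 and 43.99 RPKM in WT control and 34.2, 46.4 and 31.5 RPKM after TGF-β2. In KO the RPKM were 51.4, 47.7 and 52.4 RPKM in control and 36.9, 36.3 and 39.8 RPKM after TGF-β2. The KO groups were apart, and in WT the stimulated library that stood apart lay among the controls. The log2 fold change in KO was -0.34 ± 0.06 (adjusted p = 0.0109, edgeR), and -0.32 (adjusted p = 0.0554) without KO with TGF-β2 replicate 2. In the fit over all 12 libraries it was -0.30 (adjusted p = 0.0695). In WT it was -0.27 ± 0.15 (adjusted p = 0.231, edgeR), and -0.44 (adjusted p = 0.0165) without the library that stood apart. The second catalytic subunit, Prkacb, stayed between 17.3 and 22.9 RPKM and did not pass, with 0.03 ± 0.10 in WT and 0.25 ± 0.09 in KO, and 0.25 (adjusted p = 0.0051) in KO with the replicate block. Summed over the 4 regulatory genes the level was 148 ± 5.14 RPKM (SD, n = 3) in WT control and 134 ± 2.25 after TGF-β2, and 144 ± 3.94 and 135 ± 7.41 in KO, where the groups overlapped. Summed over the 2 catalytic genes it was 65.5 ± 2.14 and 56.5 ± 6.399 RPKM in WT, where the groups overlapped, and 68.9 ± 3.88 and 58.3 ± 3.84 in KO.

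The 19 members tested in neither TGF-β2 comparison were low throughout. Besides Pde3b their highest value in any library was 0.524 RPKM (Pde6g), 12 of the 19 had at most 10 counts in every library, 5 had at most 3, and the cone photoreceptor gene Pde6c had 0 counts in all 12 libraries. A count of 0 allows up to 3 counts. The photoreceptor genes Pde6a and Pde6b and the cGMP-specific Pde9a also had at most 10 counts per library, as did the PDE4 gene Pde4c, while Pde1c and Pde11a reached 29 and 38 counts.

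The second question was whether Nox4 KO cells differed from WT in these genes. No member passed in control (32 tested) or after TGF-β2 (30 tested) in edgeR's quasi-likelihood test, and 0% of all genes passed in each of these comparisons. The fits with DESeq2 and with the replicate block gave 0 members as well, while DESeq2 called 28 of 10767 genes in control and 16 of 10439 after TGF-β2. At an unadjusted p under 0.05 there was 1 member in control, the cyclase Adcy9 (log2 fold change -0.42 ± 0.16, adjusted p = 0.828, edgeR), beside 5.54% of 10767 genes. After TGF-β2 there was also 1, Pde7b (0.53 ± 0.21, adjusted p = 0.838, edgeR), beside 3.23% of 10439 genes. The groups did not overlap for 2 members in control, Adcy6 (lower in KO) and Prkaca (higher in KO), beside 13.6% of all genes (10.9% higher, 2.74% lower), and for 2 after TGF-β2, Adcy2 (lower in KO) and Pde7b (higher in KO), beside 10.1% (4.16% higher, 5.92% lower). The comparisons within a condition use the same libraries as the TGF-β2 comparisons, so their values are given side by side only. The median log2 difference of the members was -0.10 in control and 0.12 after TGF-β2, and 0.002 over all genes in both.

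**Figure D4:**
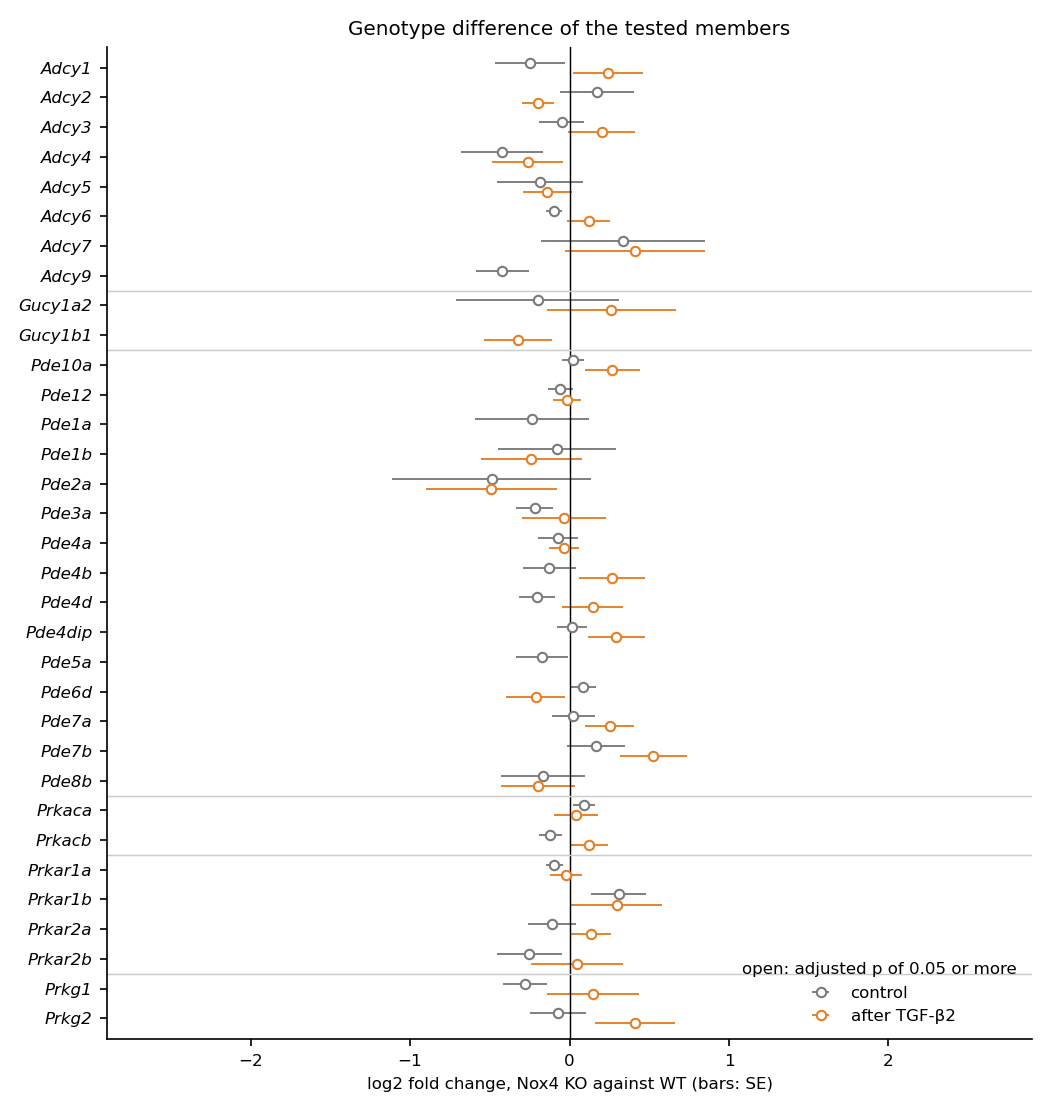
log2 fold change of Nox4 KO against WT (x axis, bars are standard errors) of each member tested, in control (grey) and after TGF-β2 (orange), grouped by family. All points lie within 0.53 of 0 and all are open, which marks an adjusted p of 0.05 or more.

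The difference between the genotypes in the response to TGF-β2 was tested over all 12 libraries. No member passed the interaction in edgeR's quasi-likelihood test (33 tested, smallest adjusted p = 0.854), 0 had an unadjusted p under 0.05 beside 2.68% of 10890 genes, and DESeq2 gave 0 members and 6 genes. Of the 32 members tested in both genotypes, 29 were fitted with the same sign. The fitted difference of KO response minus WT response was 0.30 ± 0.37 for Prkar2b, 0.40 ± 0.27 for Pde4b, -0.03 ± 0.37 for Pde8b and 0.36 ± 0.29 for Pde7b. It was 0.46 ± 0.30 for Pde5a, 0.10 ± 0.42 for Gucy1b1 and 0.07 ± 0.74 for Adcy7. Over the members it ranged from -0.37 (Adcy2) to 0.64 (Adcy9), with a median standard error of 0.30. Both ends depended on single libraries. With 1 library left out, Adcy2 lay between -0.57 (without KO control replicate 3) and -0.08 (without KO control replicate 1). Adcy9 lay between 0.27 (without WT with TGF-β2 replicate 2) and 0.88 (without WT with TGF-β2 replicate 3). The members that passed in 1 genotype alone are not shown to respond differently.

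The other genes of the pathway were taken from 12 lists of receptors, G proteins, anchors, effectors and targets. Of 129 such genes, 73 were tested in WT, where 5 rose and 24 fell (39.7% of those tested, with 22.6% of all genes passing), and 73 in KO, where 7 rose and 16 fell (31.5%, with 30% of all genes passing). Receptors that signal through Gs fell in WT in 5 of 10 tested genes and in KO in 4 of 10, beside 12.2% and 14.9% of all genes. The prostacyclin receptor Ptgir had a log2 fold change of -2.82 ± 0.25 (adjusted p = 0.0011, edgeR) in WT and -2.75 ± 0.25 (adjusted p = 0.0026, edgeR) in KO. The prostaglandin E receptor Ptger4 and the calcitonin receptor-like gene Calcrl fell in both genotypes, and the PACAP receptor Adcyap1r1 in WT. The bile acid receptor Gpbar1 alone passed as higher, with 0, 3 and 1 counts in WT control and 55, 43 and 53 after TGF-β2, and 2, 1 and 1 counts in KO control and 100, 53 and 33 after TGF-β2. Its control counts were at most 3, so it met the limit of 1 RPKM through the stimulated libraries alone, and no fold change is given. It is among the 5 and 7 list genes counted above as risen.

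For the lists that follow, the shares over all tested genes were 12.2% lower and 10.4% higher in WT, and 14.9% lower and 15.1% higher in KO. Of the Gi-coupled receptors 2 of 5 fell in WT, the sphingosine 1-phosphate receptors S1pr3 (-1.61 ± 0.19, adjusted p = 0.0023, edgeR) and S1pr1 (-1.23 ± 0.26, adjusted p = 0.0164, edgeR), and 0 of 5 passed in KO, where 1 had an unadjusted p under 0.05. Of the G protein alpha subunits 2 of 5 fell in WT, Gnai1 (-0.75 ± 0.14) and Gnao1 (-0.59 ± 0.14), and 0 of 5 passed in KO, with 0 at an unadjusted p under 0.05. RGS genes, whose products speed the shut-off of G proteins, rose in 3 of 6 in WT (Rgs16 by 0.83 ± 0.13, Rgs12 by 0.64 ± 0.10 and Rgs19 by 0.64 ± 0.13) and in 2 of 6 in KO. Among natriuretic peptide genes and nitric oxide synthases, the clearance receptor Npr3 fell in both genotypes (-1.50 ± 0.13 in WT and -1.04 ± 0.18 in KO), the guanylyl cyclase receptor Npr2 fell in WT (-0.38 ± 0.09), and the third of the genes tested, the ligand Nppb, had 1.77 ± 0.52 in WT (adjusted p = 0.0520, edgeR).

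Downstream of cAMP, the exchange factor EPAC1 (Rapgef3) fell in both genotypes, by 1.17 ± 0.09 on the log2 scale in WT and by 1.33 ± 0.26 in KO, as the only effector of 4 that fell in WT, and in KO the cAMP-binding membrane protein Popdc2 fell as well. A-kinase anchoring proteins gave 2 falls of 10 in WT (Akap7 and Akap1) and 3 rises and 1 fall of 11 in KO. These are 20% and 36.4% of those tested, near the 22.6% and 30% of all genes that passed. Of the PKA inhibitor peptides, Pkig fell in WT (-0.70 ± 0.19), and of 2 exporters 0 passed in either genotype, with 1 at an unadjusted p under 0.05 in each. In the CREB family the kinase gene Sik1, itself a cAMP-induced gene, fell in both genotypes (-0.87 ± 0.12 in WT and -0.89 ± 0.16 in KO), and Crem fell in KO. Of 10 tested genes known as CREB targets, 7 fell and 1 rose in WT, beside 12.2% lower and 10.4% higher of all genes. In KO 6 fell and 1 rose, beside 14.9% lower and 15.1% higher. The calcium-regulating hormone gene Stc1 had -3.10 ± 0.33 (adjusted p = 0.0018, edgeR) in WT and -2.46 ± 0.40 (adjusted p = 0.0093, edgeR) in KO. The immediate early gene Fos had -1.48 ± 0.26 in WT and -1.93 ± 0.22 in KO, while its relative Fosb rose by 1.503 ± 0.26 and 1.64 ± 0.46. These targets also answer to other kinase pathways. Of the PKG substrates and partners 1 of 5 fell in WT (Mrvi1, -0.66 ± 0.12) and 0 of 4 passed in KO, with 1 at an unadjusted p under 0.05. No gene of the lists passed for KO against WT in either condition or in the interaction, with 7, 2 and 0 genes at an unadjusted p under 0.05 in control, after TGF-β2 and in the interaction.

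**Figure D5:**
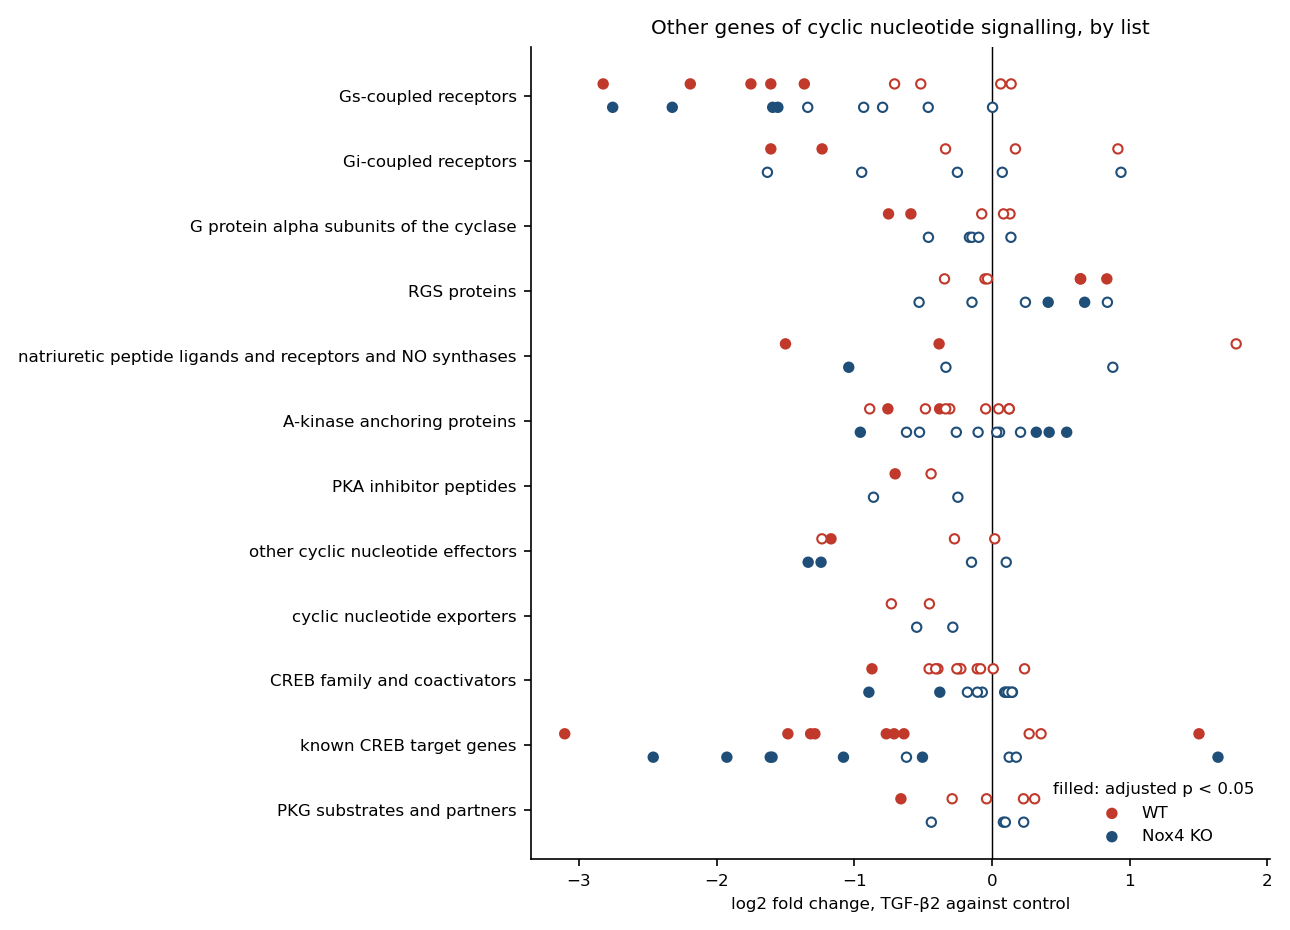
log2 fold change of TGF-β2 against control (x axis) of each tested gene of the 12 lists (rows), in WT (red) and Nox4 KO (blue), with filled points for an adjusted p under 0.05. Gpbar1 is not drawn because its control counts were at most 3, and most filled points of the Gs-coupled receptors and of the CREB targets lie left of 0.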

How the data were processed

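RNA of 12 libraries of primary mouse skin fibroblasts (WT and Nox4 KO, control and TGF-β2, 3 each) was sequenced by the authors, single-end, from TruSeq libraries. Per the labels and the paper, CASAVA 1.8.2, STAR 2.4 on GRCm38 and featureCounts 1.4.6 were used, reads with several locations were discarded, and each gene's count was taken over the union of exons of its coding isoforms. Whether counting used the strand is not given in the sources used here. The deposited values are these raw counts for 21556 genes, without normalization, and every column was assigned to a sample.

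RPKM was computed from the counts, the library total and the merged exon length in GENCODE M21, using coding transcripts only where a gene had any (21099 genes, all transcripts in 457 others). Genes with a mean of at least 1 RPKM in at least 1 group compared were tested with edgeR 4.0.16 (quasi-likelihood, TMM, R 4.3.3) and Benjamini-Hochberg adjustment, each comparison on its own 6 libraries and the interaction on 12. Overlap of groups, sums and shares were taken from RPKM, scaled by library total, while the tests used TMM scaling, so the 2 can differ for small changes. The procedure was tested on simulated counts. Depth of 35118344 to 43796260 counts gives a floor of 3 counts, or 0.0427 RPKM for a gene of 2 kb in the smallest library, which covers counting error only.

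Replicate numbers come from the labels. Deviations of same-numbered KO libraries from their group means correlated at 0.760, 0.667 and 0.737, so these numbers pair the samples, and the pairing rests on this check alone. Alternatives were DESeq2 1.42.0, upper-quartile scaling, filterByExpr, no filter, a 2-fold limit, a replicate block, all 12 libraries in 1 fit, each library left out and, added after seeing the data, TMM on library totals.

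The members, gene lists and tests were chosen with earlier results of these data known. Values were given in full for each member that passed after TGF-β2 in either genotype and for the 3 of highest mean RPKM, and up to 3 genes of each list were named, by their WT log2 fold change, with others named after their values were seen. Of the 130 list genes 1 was not found in the table. A gene whose symbol fits the same pattern, and the values of a list gene, are not reported here. Promoters were read from RefSeq (GRCm38.p6), and motifs were matched and figures drawn with Python 3.11.15.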

Additional observations from a re-analysis of the deposited data

How the results depend on the processing

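Settings that kept every library left most counts of members that passed within 1.5 times the main count. The exceptions were the members that rose in KO (4), with 9 in DESeq2, 11 with the replicate block and 2 with the 2-fold limit, the members that rose in WT (4), with 2 under that limit, and those that fell in KO (10), with 6. In WT the correlations of same-numbered libraries were 0.0390, 0.432 and 0.520. Each stimulated library correlated best with its own number except replicate 1, so the check does not settle whether the WT libraries are paired. With the block, WT gave 6 higher (Pde1b and Pde2a added) and 12 lower (Gucy1a2, Pde7a and Prkar1b added).

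With 1 library left out, the members that rose numbered between 2 and 4 in WT and between 1 and 6 in KO, and those that fell between 7 and 12 and between 4 and 11. The counts for KO against WT and for the interaction were 0 under every setting. The log2 fold change of Adcy2 for KO against WT in control changed sign to -0.12 without KO control replicate 1 (up to 0.349 otherwise), that of Pde7b to -0.025 without KO control replicate 3 (up to 0.288), and that of Prkg1 after TGF-β2 to -0.060 without WT with TGF-β2 replicate 2 and to -0.0896 without KO with TGF-β2 replicate 3 (up to 0.447), and none of these had passed. Of 224 values of members named in the TGF-β2 comparisons under settings that kept every library, 214 stayed on the same side of the threshold, 6 lost and 4 gained a call, and 0 changed sign. The block changed no other member's call than those given here and in the report. With 3 libraries per group, calls of larger changes also depended on single libraries, as for Adcy7 in WT and Pde1a, Pde5a and Prkg2 in KO.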
